A study of Drosophila melanogaster with 2 samples.

Results

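Occupancy by a tagged Oli protein was examined at 6 genes for transcription factors of the Drosophila melanogaster gut: fkh, byn, GATAe, Hnf4, hkb and cad. The genes were taken by symbol from a fixed list, 6 of the 13945 protein-coding genes annotated on the chromosomes analysed, and a peak was tied to a gene when that gene had the nearest protein-coding start site or held the peak's summit in its body. Of the 6 genes, 3 had a peak in the list that passed the irreproducible discovery rate (IDR) threshold, a measure of agreement between replicates: fkh had 4 peaks, Hnf4 had 2 and cad had 1. GATAe, byn and hkb had 0 there, and hkb had 0 in each of the other lists as well. At least 1 IDR peak was tied to 27.5% of all protein-coding genes. The share was 29.0 to 62.5% in the classes of genes, by length of sequence tied to them, that hold these 6. The strongest of the 7 peaks stood within Hnf4, 265 bp before the innermost of its start sites, at rank 402 of 6496 by signal.

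The embryos were of both sexes and 6 to 18 hours old by the source description (the separate age entry is not a readable age), and came from a stable transgenic line whose Oli protein is fused at its C terminus to green fluorescent protein (GFP). Oli is a basic helix-loop-helix (bHLH) transcription factor of the Olig family. An anti-GFP antibody was used to precipitate the chromatin of 2 biological replicates, all carrying the transgene, which form 1 group with no second condition, and the promoter that drives the transgene is not given in the sources used here. Whole embryos were used, so a peak may come from any tissue, and cells of the gut cannot be told apart from the rest.

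The embryonic gut is built from ectodermal foregut and hindgut and from an endodermal midgut that joins them. The gene hkb encodes a zinc finger repressor of the terminal system that sets aside the endoderm, and cad encodes a homeodomain protein of the caudal family that acts in the posterior embryo and the hindgut. The FoxA protein encoded by fkh is needed in the foregut, the hindgut and the salivary glands, and byn encodes the Brachyury protein, a T-box factor needed for the hindgut. GATAe encodes a GATA factor of the differentiating midgut, and Hnf4 a nuclear receptor known from the midgut, fat body and Malpighian tubules for its part in lipid metabolism.

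The reference sequence around 6 of the 7 IDR summits is shown here because the base composition and the motif matches described below can be read from it. Each run is 101 bases of the plus strand of dm6, 50 to either side of the summit, and capitals mark matches to the motifs searched, which are named after the sequences.
Hnf4, chr2L:8691424-8691524: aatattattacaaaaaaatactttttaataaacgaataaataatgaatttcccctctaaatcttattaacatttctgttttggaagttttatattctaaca
cad, chr2L:20780912-20781012: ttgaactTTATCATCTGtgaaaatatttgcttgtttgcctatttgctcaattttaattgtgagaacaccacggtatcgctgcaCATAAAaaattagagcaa
fkh, chr3R:28570969-28571069: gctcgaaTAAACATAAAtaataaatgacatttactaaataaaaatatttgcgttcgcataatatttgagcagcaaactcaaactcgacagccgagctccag
fkh, chr3R:28587103-28587203: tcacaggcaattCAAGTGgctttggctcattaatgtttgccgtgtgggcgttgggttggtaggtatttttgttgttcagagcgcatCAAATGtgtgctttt
fkh, chr3R:28590549-28590649: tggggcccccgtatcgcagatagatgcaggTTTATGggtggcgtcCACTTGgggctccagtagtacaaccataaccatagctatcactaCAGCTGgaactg
fkh, chr3R:28591347-28591447: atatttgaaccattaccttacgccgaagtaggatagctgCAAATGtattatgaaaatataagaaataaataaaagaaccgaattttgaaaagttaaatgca

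The motifs were sought on both strands. They were the GATA core GATAA, the E-box CANNTG that bHLH proteins bind, with its forms CAGCTG and CATATG, and the forkhead core TGTTTA. The others were the Caudal core TTTATG, the Huckebein core GGGCGTG, and partial sites of T-box factors (AGGTGT) and HNF4 (AAAGTCC). The window at Hnf4 held 0 of all these motifs. Each of the other 5 held at least 1.

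The first question was how often these genes had a peak, set beside all protein-coding genes. The count was 3 of 6 genes, and over all protein-coding genes 27.5% had at least 1 tied IDR peak. The 6 genes also have long territories, meaning the length of sequence whose summits go to that gene. Territories measured 27.3 kb for fkh, 24.9 kb for Hnf4, 17.6 kb for cad, 15.1 kb for GATAe, 10.97 kb for hkb and 9.69 kb for byn, and the median over all protein-coding genes was 5.25 kb. When the coding genes were cut into 10 equal classes (deciles) of territory length, fkh fell in the longest, decile 10, where 62.5% of genes had an IDR peak. Hnf4 and cad fell in decile 9, with 49.0%, GATAe and hkb in decile 8, with 38.2%, and byn in decile 7, with 29.0%. The share of 3 in 6 thus lay within the range of the deciles to which these genes belong. The members were not tested as a list, since there is 1 group of 2 libraries and the list was drawn up with earlier results known.

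**Figure D1:**
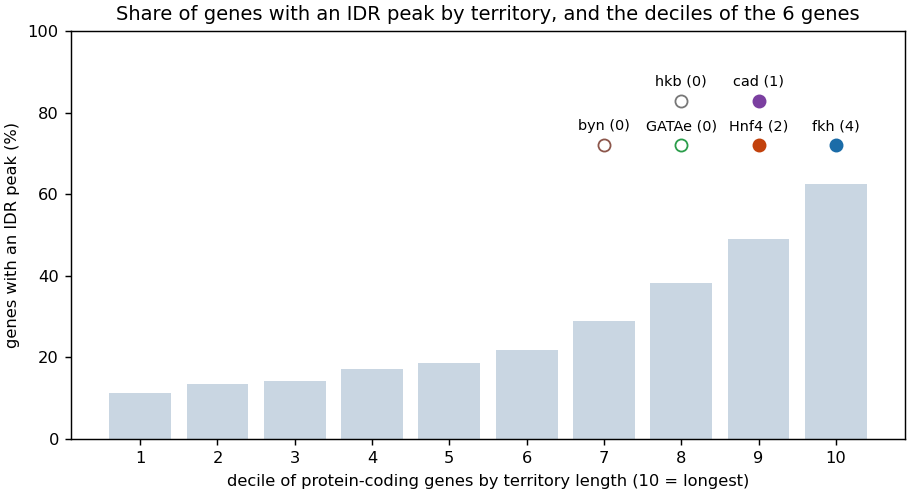
Bars give the share of protein-coding genes with at least 1 tied IDR peak in each decile of territory length. Circles place the 6 genes in their deciles at arbitrary height, filled where the gene had an IDR peak, with its number of IDR peaks in brackets: fkh, Hnf4 and cad, in the longest 2 deciles, are filled, and GATAe, hkb and byn are open.

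Among the genes with peaks, fkh (FBgn0000659, 3R 28580976 to 28585264, minus strand) had the most under the tie rule used here. With nearest start sites alone it kept 4 peaks. With gene bodies or 5 kb around start sites, fkh had 1 and Hnf4 had 2, so the order depends on the rule. At least 4 tied IDR peaks were found at 3.46% of all protein-coding genes and at 22.2% of those in the same decile of territory. The highest fkh peak (3R 28570811 to 28571226) lay between genes, 14093 bp downstream of the nearer fkh start site and beyond the end of the gene. It had a pooled signal of 317.9 (rank 2960), with a signal of 180.3 and rank 2899 in replicate 1 and a signal of 142.8 and rank 3071 in replicate 2. Signals of different lists were scaled separately, so ranks are compared between replicates and signals are not. The ranks of this peak were alike in the 3 lists.

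The other 3 fkh peaks lay upstream of the gene. The nearest to it (3R 28586945 to 28587360) stood 1889 bp upstream of a start site, with a pooled signal of 211.9 (rank 4701), a signal of 114.9 (rank 4925) in replicate 1 and a signal of 92.3 (rank 4987) in replicate 2. The peak at 28590391 to 28590806 stood 5335 bp upstream, with a pooled signal of 177.1 (rank 5650), a signal of 117.3 (rank 4801) in replicate 1 and a signal of 68.6 (rank 6776) in replicate 2. The peak at 28591189 to 28591604 stood 6133 bp upstream, with a pooled signal of 200.4 (rank 4968), a signal of 97.8 (rank 5901) in replicate 1 and a signal of 92.0 (rank 4998) in replicate 2. All 3 ranked in the weaker part of the IDR list. The summits 1889 and 5335 bp upstream lay in exons of the long non-coding RNA gene lncRNA:CR43126, and with non-coding genes counted as nearest genes too, the upstream peaks were no longer tied to fkh, which kept 1 peak.

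The fkh promoter itself stood just outside the IDR list. A pooled peak 270 bp upstream of a start site (3R 28585326 to 28585741) had a signal of 146.8 at rank 6860, where the lowest signal in the IDR list was 154.8. It ranked 6325 in replicate 1 and 8732 in replicate 2. A neighbour of the highest peak, 15100 bp downstream of the start site, was also just outside, with a pooled signal of 147.0 at rank 6852 and ranks of 6370 and 7895. Both were among the strongest 6496 peaks of replicate 1 and outside those of replicate 2. With the strongest 6496 peaks of 1 replicate alone, fkh had 6 peaks in replicate 1 and 3 in replicate 2.

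At Hnf4 (FBgn0004914, 2L 8687226 to 8709611, minus strand) both IDR peaks lay in introns. The gene has 5 annotated start sites, and the strong peak (2L 8691442 to 8691683) stood 265 bp upstream of the innermost of them, at 8691209. Its pooled signal was 1184 (rank 402, within the top 6.19% of the list), with a signal of 775.4 and rank 282 in replicate 1 and a signal of 417.5 and rank 661 in replicate 2. It was the only one of the 7 within 500 bp of an annotated start site, and its rank was higher than those of the other 6 in both replicates. The other Hnf4 peak was close to the bottom of the list. Another site, 331 bp upstream of the start site at 8699905 (2L 8700028 to 8700443), was outside the IDR list at rank 8370, with ranks of 6104 in replicate 1 and 10984 in replicate 2.

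The gene cad (FBgn0000251, 2L 20770731 to 20783135, plus strand) had 1 IDR peak (2L 20780754 to 20781169), in an intron 10068 bp downstream of a cad start site. Its pooled signal was 213.9 (rank 4661), with a signal of 91.7 (rank 6319) in replicate 1 and a signal of 99.8 (rank 4612) in replicate 2. The peak was tied to cad only through the gene body. The nearest coding start site, 6694 bp away, belonged to the neighbouring gene Pomp, and with nearest start sites alone cad had 0 peaks and 2 of the 6 genes had an IDR peak. At the start sites of cad, a pooled peak 151 bp upstream (2L 20770372 to 20770787) ranked 16274. It overlapped a peak of replicate 2 (rank 11088) and none of replicate 1. The IDR peak nearest to a cad start site was a different one, 8553 bp upstream and tied to dia, with a signal of 294.4 (rank 3261).

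**Figure D2:**
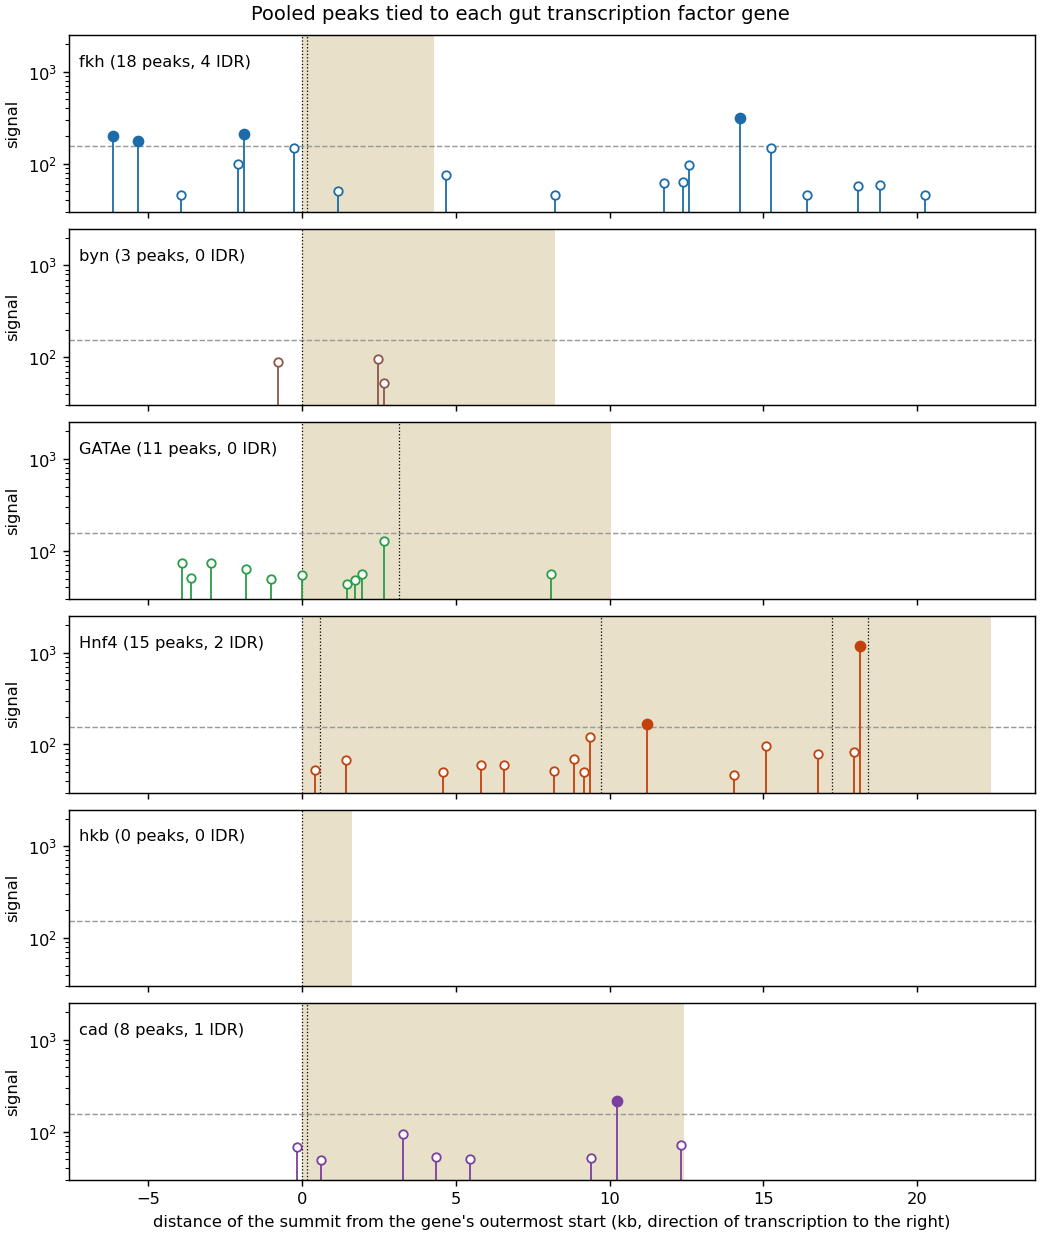
Each panel shows the pooled peaks tied to 1 gene, with distance of the summit from the outermost start of the gene in kb along the direction of transcription and the deposited pooled signal on a log axis. Filled circles are IDR peaks, open circles the other pooled peaks, and the shaded band the gene body. Dotted lines are annotated start sites, and the dashed line is the lowest signal in the IDR list (154.8). The Hnf4 peak at an internal start stands far above the rest, the fkh IDR peaks flank the gene, and the hkb panel is empty.

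Of the 3 genes without an IDR peak, GATAe (FBgn0038391, 3R 16009105 to 16019133, plus strand) had the most weak peaks. The pooled list, which holds 30000 peaks, tied 11 to GATAe, and the replicate lists 9 and 11. The highest (3R 16011549 to 16011964) lay in an intron 517 bp upstream of the internal start site at 16012274, with a pooled signal of 127.1 (rank 7967), a signal of 72.3 (rank 8230) in replicate 1 and a signal of 56.0 (rank 8343) in replicate 2. Both replicates thus placed it below their strongest 6496. Its window, shown because it is the highest GATAe site and holds 0 of the motifs, reads as follows on the plus strand.
GATAe, chr3R:16011707-16011807: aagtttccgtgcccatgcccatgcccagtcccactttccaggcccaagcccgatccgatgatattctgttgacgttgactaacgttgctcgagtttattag
Of the 806 protein-coding genes with at least 11 pooled peaks, IDR peaks included, 91.4% had at least 1 in the IDR list, and GATAe is among the others. That number was set by the count at GATAe itself, so the share is a description. The IDR peak nearest to GATAe, 24448 bp upstream, was tied to the neighbouring gene srp, which encodes another GATA factor of the endoderm.

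The gene byn (FBgn0011723, 3L 11927693 to 11935919, plus strand) lies within the body of the larger gene CG44837. It had 3 tied peaks in the pooled list, 3 in replicate 1 and 2 in replicate 2. The highest (3L 11929945 to 11930360) lay in an intron 2460 bp downstream of the start site, with a pooled signal of 95.0 (rank 10918), a signal of 41.5 (rank 16535) in replicate 1 and a signal of 46.6 (rank 9998) in replicate 2. A peak 771 bp upstream (3L 11926714 to 11927129, pooled signal 87.8, rank 12019) was placed the other way round by the replicates, at rank 9466 in replicate 1 and 19407 in replicate 2. The nearest IDR peak was 39410 bp from the byn start site and tied to prc.

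The gene hkb (FBgn0261434, 3R 4345015 to 4346646, minus strand) had 0 peaks in all 4 lists. A gene with none in any list was common over all protein-coding genes (34.1%) and less so in the territory decile of hkb (16.3%). The pooled peak nearest to hkb was 14201 bp upstream of its start site, at rank 21995 and tied to CG1090, and the nearest IDR peak 35404 bp downstream, tied to Vps24. Read depth is unknown, so it cannot be said how weak a site the lists would have missed there.

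**Figure D3:**
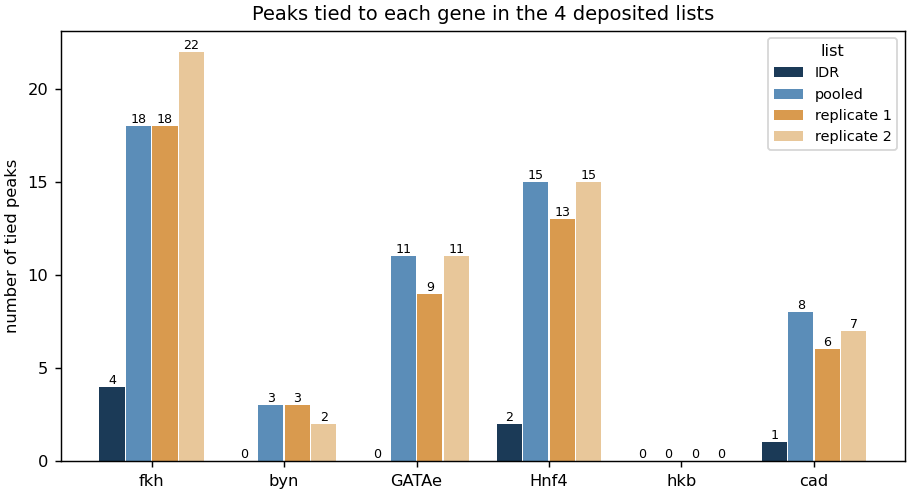
Bars give the number of peaks tied to each of the 6 genes in the IDR list and in the pooled, replicate 1 and replicate 2 lists of 30000 peaks each. The order of the genes is the same in the 3 long lists, from fkh with 18 to 22 peaks down to hkb with 0, and only fkh, Hnf4 and cad have bars for the IDR list.

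In the long lists the weaker peaks brought in all genes but hkb. At least 1 tied peak was found at 5 of the 6 in the pooled list (55.6% of all protein-coding genes), at 5 of 6 in replicate 1 (56.3%) and at 5 of 6 in replicate 2 (58.1%). By territory the pooled share was 63.3% in decile 7 (byn), 75.8% in decile 8 (GATAe and hkb), 88.5% in decile 9 (Hnf4 and cad) and 91.6% in decile 10 (fkh). The pooled list held 55 peaks tied to these genes: 18 at fkh, 15 at Hnf4, 11 at GATAe, 8 at cad and 3 at byn. Several of them overlap each other, so they are not independent sites. Their median signal was 62.8, with 72.8 over the whole pooled list, and the 7 in the IDR list had a median of 211.9, with 295.2 over all IDR peaks.

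Agreement between the replicates was read from overlaps, summits and ranks. All 7 IDR peaks overlapped a peak of each replicate (99.5% over the whole IDR list), and all 7 had a summit within 100 bp in each (94.6%). The IDR list consists of the 6496 pooled peaks of highest signal, and the pooled list draws on both replicates, so these counts are a description. Against the strongest 6496 peaks of each replicate 5 of the 7 (71.4%) overlapped in both, and 82.3% of all IDR peaks did. The peaks that did not were the weaker Hnf4 peak and the fkh peak 5335 bp upstream, each below rank 6496 in replicate 2. The rank of a peak differed between the replicates by 62 to 1975 places over the 7, with a median of 676, against a median of 762 over 6465 IDR peaks found in both and 1446 over the weaker part of the list.

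Agreement was lower among the 48 pooled peaks outside the IDR list. Of these, 28 (58.3%) overlapped a peak in both replicates and 18 (37.5%) had a summit within 100 bp in both. Over all 23504 pooled peaks outside the IDR list the shares were 61.9% and 39.2%. With the IDR peaks included, a summit within 100 bp in both replicates was found for 25 of the 55 pooled peaks (45.5%), against 51.2% of all pooled peaks. By gene these were 12 of 18 pooled peaks at fkh, 5 of 15 at Hnf4, 4 of 11 at GATAe, 3 of 8 at cad and 1 of 3 at byn.

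**Figure D4:**
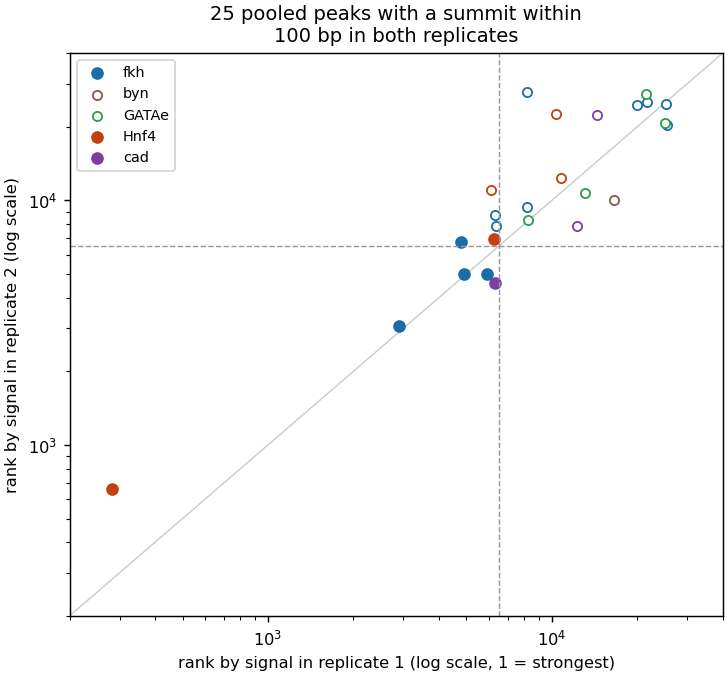
Each circle is 1 of the 25 pooled peaks at these genes with a summit within 100 bp in both replicates, placed by its rank by signal in replicate 1 and replicate 2 on log axes, filled for IDR peaks. Dashed lines mark rank 6496 and the grey line equal ranks: the Hnf4 peak at ranks 282 and 661 stands alone, and the other 6 IDR peaks gather on both sides of the crossing of the dashed lines, from rank 2899 down.

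The position of the peaks was compared with that of all IDR peaks. Of the 7 summits 1 (14.3%, exact Clopper-Pearson 95% interval 0.361 to 57.9%) lay within 500 bp of an annotated start site, against 35.9% (34.7 to 37.0%) of all IDR summits. The interval covers counting error over peaks only, includes the share of the whole list and takes the peaks of 1 gene as separate. By annotation 3 summits lay in introns (3506 of all 6496 IDR summits did), 2 in exons of lncRNA:CR43126 (28.6%, against 2.48% in non-coding exons) and 2 between genes (28.6%, against 37.3%). Counted by gene, 1 of the 6 (Hnf4) had an IDR summit within 500 bp of a start site of its own, as did 18.8% of all protein-coding genes. In the pooled list fkh, GATAe, Hnf4 and cad had one, 4 of 6, against 39.8%. Exons of non-coding genes held 9 of the 55 pooled summits (16.4%, exact 95% interval 7.77 to 28.8%), against 2.62% of all pooled summits. These 9 lay in 3 genes, lncRNA:CR43126 upstream of fkh, lncRNA:CR42839 upstream of GATAe and the antisense gene asRNA:CR44992 inside Hnf4, so they are not 9 independent sites.

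The sequences around the 7 summits differed widely in base composition. GC content of the 101 bp ran from 18.8% at the strong Hnf4 peak, the lowest, to 53.5% at the fkh peak 5335 bp upstream. In order, the others shown were 27.7% at the fkh peak 6133 bp upstream, 32.7% at cad, 33.7% at the downstream fkh peak and 44.6% at the fkh peak 1889 bp upstream. The mean was 34.4% (SD 11.4 over 7 peaks), against 30.9% (SD 8.21) over all 6496. At 500 bp to the right of the summit the mean was 44.7% and to the left 36.9%, against 43.5% and 43.6% over all IDR peaks. In 5 of the 7 the summit was below the window to the right, and the exceptions were the 2 fkh summits in exons of lncRNA:CR43126. It was below the window to the left in 4 of the 7, where the downstream fkh peak, with 24.8% to its left, was a further exception. The 48 pooled peaks outside the IDR list had a mean of 44.7% (SD 12.1) at the summit, against 40.9% over all such peaks.

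**Figure D5:**
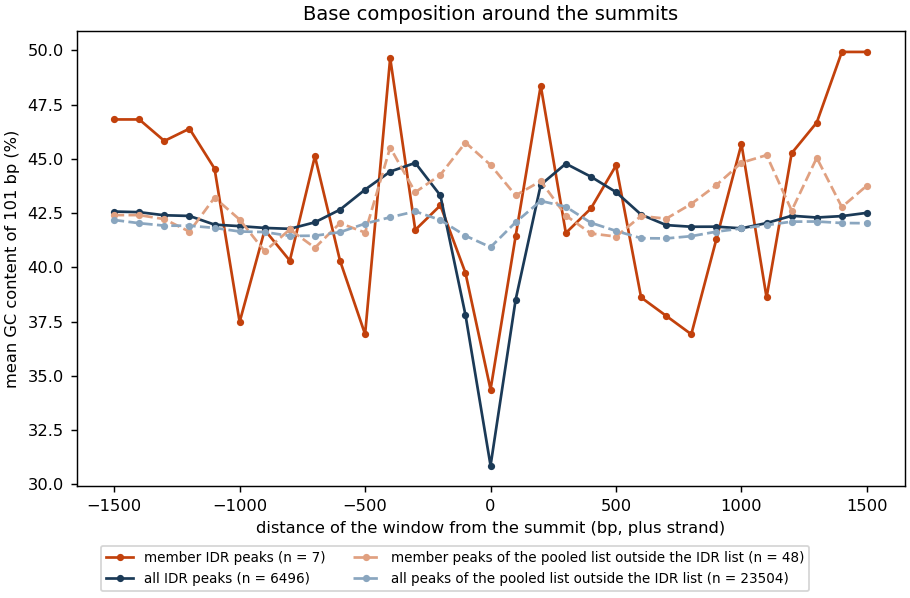
Lines give the mean GC content of 101 bp windows at distances of up to 1500 bp from the summit, for the 7 IDR peaks at the gut factor genes, all IDR peaks, and the pooled peaks outside the IDR list at these genes and overall. The 7 peaks have a low point of 34.4% at the summit and vary widely on either side, since they are few, and the 48 weaker peaks show no low point there.

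E-boxes (CANNTG) were found in 4 of the 7 windows (57.1%), against 32.3% of all IDR summit windows. They were CAAGTG and CAAATG at the fkh peak 1889 bp upstream, CAAATG at the peak 6133 bp upstream, and CATCTG on the printed strand at cad. The fkh peak 5335 bp upstream held CACTTG, which ends at the summit base, and CAGCTG further on. CAGCTG stood at 1 of 7 windows and 2.28% of all, and CATATG at 0 of 7 and 260 of all 6496. In the windows 500 bp to the right 4 of 7 held an E-box (41.7% over all IDR peaks), and to the left 1 of 7 (40.7%). The form CAGCTG stood in 2 of 7 windows to the right (4.59% over all IDR peaks) and 0 of 7 to the left (4.99%). Over the pooled list, E-boxes stood at 21 of the 55 summits (38.2%), against 39.1% of all. The 7 IDR summits are among the 55, and windows of 1 gene are not independent. The share of 57.1% at the 7 was the same 500 bp to the right and lower to the left, at 1 of 7. With 7 windows it cannot be said whether the share is particular to the summits.

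Sites of the gut factors themselves were also counted. The Caudal core TTTATG was found in 3 windows (42.9%, against 14.6% of all IDR summit windows), at cad itself, at the downstream fkh peak and at the fkh peak 5335 bp upstream. It stood in 2 of 7 windows 500 bp to the left and 0 of 7 to the right, against 11.1% and 10.7% over all IDR peaks. At the downstream fkh peak it overlapped the only match to the forkhead core TGTTTA, in the run printed as TAAACATAAA on the plus strand (1 of 7, against 15.2%). At cad the only match to the GATA core GATAA, printed as TTATC, shared a base with the E-box CATCTG (1 of 7, against 25.1%). The partial T-box and HNF4 sites and the Huckebein core were in 0 of the 7 windows, against 2.42%, 0.770% and 0.231% of all. Over the 55 pooled windows GATAA stood at 14.5% and TTTATG at 16.4%, against 20.3% and 12.7% of all pooled windows. A match is a string of letters and no evidence that a factor is bound, and 7 windows are too few for a share to be precise.

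For comparison, 30 other genes of gut development were taken from a list that does not hold the 6. Of these, 17 (56.7%) had an IDR peak, beside the background of 27.5% above. Their median territory was 20.7 kb, against 16.3 kb for the 6. That median falls in decile 9 of territory length, where 49.0% of genes had an IDR peak, and decile 10 had 62.5%. By tissue, an IDR peak was found at 6 of 9 genes of the midgut and endoderm and 5 of 11 of the hindgut, foregut and terminal system. It was found at 4 of 7 of the visceral mesoderm and 2 of 3 of the Malpighian tubules. In the same order the median territories were 21.4, 22.9, 8.66 and 32.5 kb. These medians fall in deciles 9, 9, 7 and 10, with shares of 49.0%, 49.0%, 29.0% and 62.5%. The highest signals in the midgut group were 417.6 at tsh, 305.3 at srp and 241.1 at lab, all above the cad peak and below the strong Hnf4 peak. In the hindgut group bowl, a zinc finger gene, had 2101 (rank 111) 211 bp upstream of a start site, otp 1060, where the summit lay in a coding exon and the nearest coding start site was that of Cib2, and dpp 1010. In the visceral mesoderm org-1 had 1352, bin 1107 and tin 833.3. In the Malpighian tubules ct had 579.3 and peb 167.3, and Kr had 0 IDR peaks. The terminal system genes tll and tor, the pathway in which hkb acts, likewise had 0.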

How the data were processed

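ChIP-seq (chromatin immunoprecipitation and sequencing) of GFP-tagged Oli was done on 2 biological replicates, with chromatin sheared to 200 to 800 bp, per the labels. The authors deposited 4 peak lists on dm6, per the accompanying file notes: replicate 1, replicate 2, the pooled replicates (30000 peaks each) and the IDR-thresholded list (6496 peaks). Per the same notes the replicate lists share a control. No peak caller or IDR threshold is given in the sources used here. Signal is the signal value that the authors deposited for each peak, and was used within 1 list at a time. Read depth is unknown, and signal tracks and control libraries were not analysed here.

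Genes came from Ensembl release 115 (BDGP6 version 54, transposable elements left out) and sequence from the RefSeq copy of genome release 6, which is dm6. Coordinates count from 1. Summits on the 6 main chromosome arms were tied to genes in Python 3.11.15 (numpy 2.4.6, pandas 2.3.3, scipy 1.17.1; figures matplotlib 3.10.9), with tie rules tested on simulated data. Exact Clopper-Pearson 95% intervals were computed for the shares of summits by position only, and the other shares have none. No significance test was run. The members, the gene lists and the motifs were chosen with earlier results of these data known. Named genes were all 6 members with each IDR peak (the weaker Hnf4 peak excepted), the 3 highest genes of each other gut group (2 of the Malpighian tubule group had a peak) and the genes tied to the same peaks. The byn and GATAe peaks, the promoter peaks, and Kr, tll and tor were named after their values were seen. So were the genes of the peaks nearest to GATAe, byn, hkb and cad. The coordinates, signals and sequence of the weaker Hnf4 peak are not reported here. It is kept in the counts.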

Additional observations from a re-analysis of the deposited data

How the results depend on the processing

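The number of genes with a peak, 3 of 6, was 2 with nearest start sites alone, 3 with gene bodies or 5 kb around start sites, 2 in the stronger 3248 IDR peaks and 5 in the whole pooled list, and it ranged from 3 to 3 with either replicate left out. The number of tied peaks, 7, was 4 with gene bodies or 5 kb around start sites, 4 with non-coding genes included, 2 in the stronger 3248 and 55 in the pooled list, and ranged from 5 to 10 with a replicate left out. The 1 peak near a start site became 0 within 200 bp, 12 in the pooled list, and ranged from 1 to 3 with a replicate left out, with 3 when replicate 2 was left out. The 7 peaks found in both replicates became 2 in the stronger 3248 and 5 among the strongest peaks of each replicate. The 1 summit with a GATA core became 0 with nearest start sites alone, 0 in the stronger 3248, 0 within 25 bp, 3 within 100 bp and 8 in the pooled list, and ranged from 0 to 1 with a replicate left out. The 17 other gut genes became 16 with nearest start sites alone, 15 with gene bodies or 5 kb around start sites and 12 in the stronger 3248. They became 28 in the pooled list and ranged from 16 to 18 with a replicate left out. In the pooled list 55.6% of all protein-coding genes had a tied peak. The pooled share was 88.5% in decile 9 of territory length, where the median of these other gut genes falls, and 91.6% in decile 10. The lower counts in the stronger 3248 and the higher ones in the pooled list follow from the length of the lists. Shares of all protein-coding genes are not given here for the other tie rules, the stronger 3248 or the strongest peaks of 1 replicate. Counts in those settings are therefore not to be set against the 27.5% of the IDR list. Nor is the share of all IDR windows with a GATA core given within 25 or 100 bp. No paired analysis was possible because there is 1 group. Read depth is unknown, so it is not known how weak a site these lists could hold.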

Other observations

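The genes drm, lin and bowl act in 1 regulatory cascade in the hindgut and foregut, and their peaks differed. At bowl, the last gene of the cascade, 8 of 12 pooled peaks were in the IDR list, up to rank 111 of 6496. At drm 0 of 12 and at lin 0 of 2 were. Over all pooled peaks 21.7% were in the IDR list. The segment polarity gene en, also expressed in the hindgut, had 16 pooled peaks and 0 in the IDR list. These genes were singled out after their values were seen. The drm, en and GATAe loci thus had 11 or more weak peaks each and none above the threshold, as had 69 (8.56%) of the 806 protein-coding genes with at least 11 pooled peaks. The lowest of all 6496 IDR peaks, with a signal of 154.8, was tied to the midgut gene dve.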
